A study of Homo sapiens with 29 samples.

Results

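The genes described here are 50 genes of cholesterol and fatty acid metabolism. They were listed by name, with earlier results of these data known, and no measured difference entered the rule. They comprise 18 genes of sterol synthesis, 5 of sterol sensing and transport, 14 of fatty acid synthesis, activation and desaturation, 4 of triglyceride synthesis, and 9 of sterol efflux, storage and the liver X receptors (LXR). A gene was kept where it averaged at least 1 CPM (the count scaled to a fixed library size) over all libraries, before TMM normalization. All 50 of 50 matched 1 entry each and were kept, among 16660 entries at that level. CPM values below are after TMM normalization unless stated. RNA was sequenced from EndoC-βH1, a human pancreatic β-cell line, after 10 days in medium taken from HEK293, a line of human embryonic kidney origin. Those donor cells had conditioned the medium for 3 hours and stably overexpressed an empty vector (EV), wild-type CEL (WT) or a mutant CEL (MUT). The CEL product, carboxyl ester lipase, is secreted by pancreatic acinar cells and hydrolyses cholesteryl esters and glycerides in the gut. Media were filtered, set to equal protein and replaced every day. The 29 libraries comprise 9 EV, 10 WT and 10 MUT, in 3 labelled batches: batch 1 has 3 from EV, 4 from WT and 4 from MUT medium, and the other two batches have 3 from each. Every group thus received medium from engineered HEK293 cells. The sources used here do not name the mutation, say whether each HEK293 line was 1 clone, or say what a batch stands for. Nor do they say whether libraries came from separate cultures, so the p-values rest on spread among libraries that could be technical alone.

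Cells make cholesterol from acetyl-CoA through the mevalonate pathway and then through squalene and lanosterol. The transcription factor SREBP2, encoded by SREBF2, drives these genes when sterols in the endoplasmic reticulum are low, while SREBP1, encoded by SREBF1, acts more on fatty acid genes. SCAP escorts both factors to the Golgi for activation and INSIG1 retains them when sterols are plentiful. The liver X receptors NR1H2 and NR1H3 sense oxysterols and induce genes of sterol efflux and fatty acid synthesis. In β-cells, cholesterol content and the balance of saturated and unsaturated fatty acids are known to bear on insulin secretion and on survival.

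Totals were 26201744 to 40246537 estimated counts a library. All 10 of 10 β-cell markers averaged at least 1 CPM, against 3 of 4 α-cell, 2 of 7 acinar, 2 of 4 duct, 1 of 5 mesenchymal and 2 of 5 embryonic kidney markers. The acinar genes PNLIP and AMY2A were at 0 in every library. One batch 1 EV library, replicate 2, is labelled with a sample number that does not run on from its neighbours. Per kilobase of its longest transcript, SCD stood at 458.6 CPM over all libraries, ahead of ACLY at 238 and HMGCS1 at 210.1 on the same scale. FADS2 followed at 198.1, FDPS at 128 and FASN at 118 CPM per kilobase. DGAT2 at 3.04, MYLIP at 2.74 and ABCA1 at 0.0998 CPM per kilobase were the lowest of the 50. In bulk RNA, fewer cells of a type and less RNA per cell cannot be told apart.

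Promoters were read for 42 of the 50 genes as the 250 bases before the RefSeq start on GRCh38.p14. The motif CCAAT, bound by the factor NF-Y that acts beside SREBPs, was searched on both strands and was found in 26 of 42 (61.9%). Over the sub-lists, CCAAT was present in 12 of 15 sterol synthesis promoters (80%), 3 of 5 for sensing and transport, 8 of 13 for fatty acid genes (61.5%), 0 of 2 for triglyceride synthesis, and 3 of 7 for efflux and LXR (42.9%). Over all 35116 promoters of the same length, 32% held it. The sterol regulatory element core TCACNCCAC, also searched on both strands, was found in 1 of 42, SREBF2 (2.38%, against 0.883% of all promoters). The 5 sequences below include MSMO1 and HMGCS1, whose levels differed most between batches 2 and 1 among the sterol synthesis genes. The others are DHCR7, which differed between media over the 3 batches together, STARD4, which did so in batch 2 only, and SREBF2, with its sterol element. All 5 are given 5′ to 3′ on the strand of the gene. Capitals mark CCAAT or its reverse complement ATTGG and, in SREBF2, the sterol element.
MSMO1 (chr4:165327419-165327668, plus strand): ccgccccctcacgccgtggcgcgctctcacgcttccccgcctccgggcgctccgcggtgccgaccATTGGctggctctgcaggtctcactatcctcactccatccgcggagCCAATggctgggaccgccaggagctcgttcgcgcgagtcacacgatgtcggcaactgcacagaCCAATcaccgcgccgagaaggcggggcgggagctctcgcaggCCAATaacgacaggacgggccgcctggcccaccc
HMGCS1 (chr5:43313413-43313662, minus strand): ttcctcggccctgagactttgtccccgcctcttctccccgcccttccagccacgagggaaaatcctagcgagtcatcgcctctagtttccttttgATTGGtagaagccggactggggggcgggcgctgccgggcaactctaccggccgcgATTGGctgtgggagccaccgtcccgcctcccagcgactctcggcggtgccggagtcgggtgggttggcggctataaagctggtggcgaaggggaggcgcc
DHCR7 (chr11:71448394-71448643, minus strand): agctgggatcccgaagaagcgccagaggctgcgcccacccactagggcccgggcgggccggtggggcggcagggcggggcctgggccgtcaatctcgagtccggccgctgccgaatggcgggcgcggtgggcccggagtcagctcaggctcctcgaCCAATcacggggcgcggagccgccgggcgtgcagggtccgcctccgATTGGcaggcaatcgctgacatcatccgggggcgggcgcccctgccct
STARD4 (chr5:111512536-111512785, minus strand): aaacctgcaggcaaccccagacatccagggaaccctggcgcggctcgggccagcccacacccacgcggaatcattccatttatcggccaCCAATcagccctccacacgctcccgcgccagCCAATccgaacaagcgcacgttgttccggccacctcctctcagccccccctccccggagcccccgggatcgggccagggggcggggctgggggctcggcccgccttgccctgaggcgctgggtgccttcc
SREBF2 (chr22:41832855-41833104, plus strand): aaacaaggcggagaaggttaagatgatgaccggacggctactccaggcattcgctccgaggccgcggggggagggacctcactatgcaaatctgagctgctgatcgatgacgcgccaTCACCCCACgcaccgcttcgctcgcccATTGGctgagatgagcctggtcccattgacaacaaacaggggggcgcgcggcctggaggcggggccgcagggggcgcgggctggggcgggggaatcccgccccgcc
The MSMO1 sequence holds 4 CCAAT matches, with first bases 185, 139, 76 and 34 bases before the start. HMGCS1 holds 2, at 155 and 100 bases, DHCR7 2, at 94 and 48, and STARD4 2, at 161 and 130. In SREBF2 the sterol element begins 133 and CCAAT 106 bases before the start. A match describes these letters only.

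MUT medium was compared with EV medium over the 3 batches together, with batch as a term in the model (edgeR quasi-likelihood, Benjamini-Hochberg adjusted p under 0.05). Of the 50 genes, 4 rose and 0 fell, 8% of the list, where 5.20% of all 21259 genes tested passed (2.95% higher and 2.25% lower). The 4 were DHCR7, a sterol reductase at the end of cholesterol synthesis, SCD, which desaturates saturated fatty acyl-CoA, ACSL3, which activates long-chain fatty acids, and SMPDL3A, an LXR target that encodes a secreted phosphodiesterase. SMPDL3A rose by 0.22 ± 0.06 (log2 fold change ± SE, adjusted p = 0.0308), SCD by 0.21 ± 0.06 (adjusted p = 0.0434), ACSL3 by 0.18 ± 0.05 (adjusted p = 0.0316) and DHCR7 by 0.15 ± 0.04 (adjusted p = 0.0335). By group, 1 of 18 sterol synthesis genes, 0 of 5 sensing genes, 2 of 14 fatty acid genes, 0 of 4 triglyceride genes and 1 of 9 efflux and LXR genes rose. Of the 50 values, 38 were positive and 12 negative, with a median of 0.06 on the log2 scale against 6.7e-05 over all genes. Unadjusted p was under 0.05 for 17 of the 50, and for 5005 of all 21259 genes. The count of 4 was not stable to single libraries. It was 0 without any 1 of the EV or MUT libraries of batch 2, or without MUT batch 1 replicate 2, and 7 to 10 without EV batch 3 replicate 3 or any 1 of the MUT libraries of batch 3. It was 0 without batch 2 (0 of all genes), 20 without batch 3, 17 higher and 3 lower (4744 of all genes, against 1106 with the 3 batches), and 0 where the libraries of 1 batch and medium were summed to 1 profile (0 of all genes). Scaled by library size alone, 443 of all genes were higher and 515 lower, against 628 and 478.

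MUT against WT medium compares media of donor cells that overexpressed the mutant or the normal CEL. No CEL level in the media is given here, so the enzyme, its amount and the donor line cannot be told apart. In that comparison 6 of 50 genes rose and 0 fell, 12%, where 0.884% of all genes tested passed. NPC2, which carries cholesterol out of lysosomes, rose by 0.19 ± 0.04 (adjusted p = 0.00821), and DHCR7 by 0.19 ± 0.04 (adjusted p = 0.0206). The other 4 belong to fatty acid desaturation and remodelling. FADS1 and FADS2, front-end desaturases of polyunsaturated fatty acid synthesis, rose by 0.14 ± 0.03 (adjusted p = 0.00958) and 0.19 ± 0.05 (adjusted p = 0.0443). LPCAT3, which places polyunsaturated chains into phospholipids, rose by 0.15 ± 0.03 (adjusted p = 0.00958), and SCD5, a stearoyl-CoA desaturase, by 0.24 ± 0.06 (adjusted p = 0.0316). Positive values were seen for 45 genes and negative ones for 5, with a median of 0.10 (all genes 0.0044). An unadjusted p under 0.05 was found for 22 of the 50, and for 3145 of all 21259 genes. The count was 3 without MUT batch 2 replicate 1 or MUT batch 2 replicate 3, 2 without batch 2, 21 without batch 3 and 0 with summed profiles, where all genes gave 305, 1552 and 0 against 188. It was 2 without batch 1, 1 higher and 1 lower (104 of all genes), and 0 by limma voom with an estimated correlation between libraries of 0.43 (4 of all genes). Over all genes 111 were higher and 77 lower, against 65 and 97 with library size as the only scaling.

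Between WT and EV medium, edgeR called 0 of 50 genes, where 0.315% of all genes passed (36 higher and 31 lower, or 49 and 26 with library size as the only scaling). An unadjusted p under 0.05 was found for 9 of the 50, and for 2800 of all 21259 genes. DESeq2 called 1 of the 50, and 385 of all genes. Values were positive for 19 genes and negative for 31, with a median of -0.03 (all genes -0.0011). DGAT2, which makes triglyceride from diacylglycerol, stood at -0.18 ± 0.06 (adjusted p = 0.127). Over the 3 comparisons 9 of the 50 genes were called and 41 were not. The comparisons share libraries pairwise, so their values for 1 gene are not independent.

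**Figure D1:**
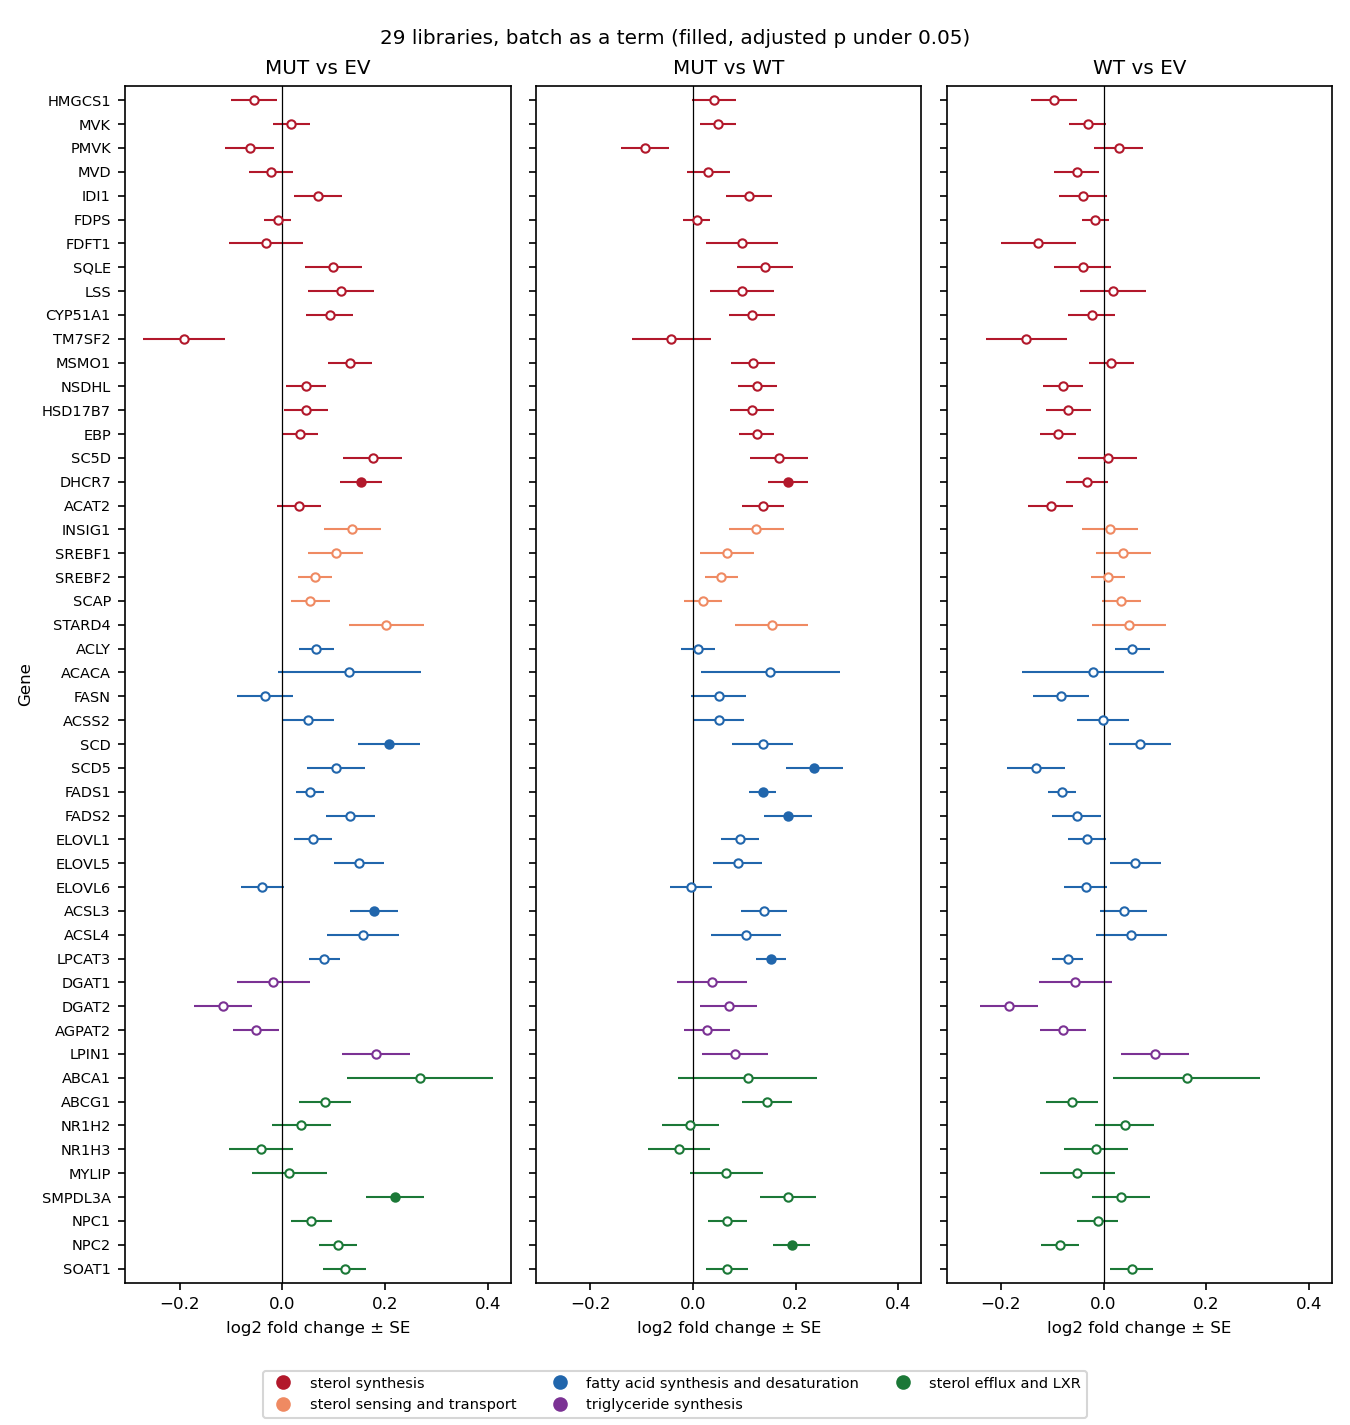
Log2 fold changes of the 50 genes over the 3 batches for MUT against EV, MUT against WT and WT against EV medium (horizontal axis, log2), with 1 gene a row, bars of 1 SE and filled points for adjusted p under 0.05. The 4 and 6 filled points of the first and second comparison all lie above 0, and the third has none.

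The size of the difference between media depended on the batch. In batch 2 alone, MUT against EV gave 32 genes higher and 6 lower of 50, where 47.8% of all genes tested in that batch passed (24.1% higher and 23.8% lower). The median was 0.20 on the log2 scale. Sterol synthesis held 9 higher and 3 lower of 18, sensing and transport 4 higher of 5, fatty acid genes 12 higher and 1 lower of 14, triglyceride genes 1 higher and 2 lower of 4, and efflux and LXR genes 6 higher of 9. LPIN1, a phosphatidate phosphatase of glycerolipid synthesis, rose most, by 0.67 ± 0.04 (adjusted p = 4.42e-10). TM7SF2, a sterol reductase acting before DHCR7 in the pathway, fell most, by 0.72 ± 0.05 (adjusted p = 1.50e-09).

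Against WT medium, batch 2 MUT libraries had 27 genes higher and 3 lower of 50 (33.1% of all genes were called, 16.8% higher and 16.4% lower), with a median of 0.15. These were 11 higher and 2 lower in sterol synthesis, 2 higher in sensing and transport, 9 higher among fatty acid genes, 1 higher and 1 lower in triglyceride synthesis, and 4 higher in efflux and LXR. ABCA1, the transporter that loads cholesterol onto lipid-poor apolipoproteins, rose by 0.72 ± 0.26 (adjusted p = 0.0432) from levels under 1 CPM. ACAT2, a cytosolic thiolase at the entry of the mevalonate pathway, rose by 0.40 ± 0.04, and FDFT1, squalene synthase, by 0.37 ± 0.06. PMVK, phosphomevalonate kinase, fell by 0.21 and AGPAT2, an acyltransferase of phosphatidate synthesis, by 0.20, on the log2 scale.

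WT against EV in batch 2 had 18 genes higher and 9 lower (38.9% of all genes were called, 19.6% higher and 19.3% lower), with a median of 0.04. By sub-list, sterol synthesis had 2 higher and 5 lower, sensing and transport 3 higher, fatty acid genes 6 higher and 3 lower, triglyceride genes 2 higher and 1 lower, and efflux and LXR 5 higher. ACACA, which makes malonyl-CoA for fatty acid synthesis, rose by 0.47 ± 0.15 and SREBF1 by 0.27 ± 0.05. FDFT1 fell by 0.34, ACAT2 by 0.34 and HMGCS1, which makes HMG-CoA, by 0.25 on the log2 scale.

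Cell type markers moved in batch 2 as well, and their part in these results was not tested. The summed CPM of the 10 β-cell markers was 22984 to 25089 in EV, 23383 to 24323 in WT and 18830 to 19924 in MUT libraries of batch 2. The 4 duct markers summed to 53.1 to 56 in EV, 53.7 to 60.4 in WT and 37 to 42.5 CPM in MUT, and the 4 α-cell markers to 1463 to 1475, 1512 to 1539 and 1268 to 1346. The 5 embryonic kidney markers summed to 7.91 to 8.81, 8.39 to 9.85 and 12.5 to 13.2 CPM, with PAX2 and EYA1 near 0. The MUT libraries of batch 2 thus had the lowest β-cell, α-cell and duct sums and the highest embryonic kidney sums, with no overlap. Mesenchymal markers summed to 1.95 to 2.49, 5.21 to 6.5 and 5.66 to 6.28 CPM, and acinar markers to 25.9 to 29.4, 22.2 to 23.5 and 22.2 to 24.3. In batch 3, β-cell markers summed to 22506 to 24030 in EV, 21660 to 28153 in WT and 25695 to 29448 CPM in MUT libraries. The mitochondrial share of counts in batch 2 was 4.80% to 5.25% in EV, 3.99% to 4.05% in WT and 4.89% to 5.41% in MUT libraries, lowest in WT with no overlap, and its part was not tested.

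In batch 1 alone, edgeR called 0 of 50 genes in MUT against EV, MUT against WT and WT against EV, where 1.40% (0.497% higher and 0.907% lower), 0.277% (0.0573% higher and 0.220% lower) and 0.0143% of all genes passed. Without robust moderation of the spread these shares came to 3, 2 and 2 genes, and again 0 of the 50. Unadjusted p was under 0.05 for 16, 20 and 16 of the 50, and for 4698, 3547 and 2042 of all 20942 genes. DESeq2 called 10, 14 and 5 of the 50, and 1895, 860 and 143 of all genes. Without MUT batch 1 replicate 4, edgeR called 14 in MUT against EV, 6 higher and 8 lower, and 10 higher in MUT against WT. Leaving out EV batch 1 replicate 3 or WT batch 1 replicate 2 gave 1 in MUT against EV. The number of genes called in batch 1 thus turned on single libraries. Counts over all genes are not given here for fits without 1 library, in batch 1 or in batch 3. Whether the moves are particular to the 50 genes was not tested. The mitochondrial share of counts was 7.08% to 8.28% in EV, 6.89% to 7.57% in WT and 5.77% to 6.46% in MUT libraries of batch 1, and its part was not tested. In batch 3 alone, edgeR also called 0 in each comparison, where 0.0490% (0.0441% higher and 0.00490% lower), 1.22% (0.868% higher and 0.348% lower) and 0.00981% of all genes passed. There, unadjusted p was under 0.05 for 10, 18 and 3 of the 50, and for 3055, 3727 and 1091 of all 20390 genes. DESeq2 called 0, 6 and 0 of the 50 in batch 3, and 326, 810 and 25 of all genes. The batch 3 count in MUT against WT was 7 without WT batch 3 replicate 3, 1 without WT batch 3 replicate 1 and 1 without MUT batch 3 replicate 1. In MUT against EV it was 3 without WT batch 3 replicate 1, which enters through the shared spread. Batch 1 medians for the 3 comparisons were 0.00739, 0.0825 and -0.0759 on the log2 scale, and batch 3 medians 0.00317, 0.0199 and -0.00161.

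The difference between batches was itself tested with an interaction of batch and medium. It was called for 36 of 50 genes in MUT against EV (44.0% of all genes), 26 in MUT against WT (28.4%) and 23 in WT against EV (24.1%). In MUT against EV these were 11 of 18 sterol synthesis, 4 of 5 sensing, 11 of 14 fatty acid, 3 of 4 triglyceride and 7 of 9 efflux and LXR genes. LPIN1 (adjusted p = 1.72e-10), TM7SF2 (2.57e-10) and SCD (2.77e-09) had the smallest p. No difference between batches was called for FADS1 (0.481) or LPCAT3 (0.632).

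Direction was also counted over the 3 batches, each fitted alone. In MUT against WT, 14 of 50 genes were higher in all 3 batches and 0 lower, where 9.99% of all genes were higher and 10.8% lower. The 14 were NSDHL, HSD17B7, EBP and DHCR7 of sterol synthesis, SREBF1, the fatty acid genes FASN, SCD5, FADS1, FADS2, ELOVL1 and LPCAT3, and ABCG1, SMPDL3A and NPC2 of efflux and LXR. In MUT against EV, 7 were higher in all 3 batches and 0 lower (8.69% and 9.76% of all genes): NSDHL, DHCR7, SREBF2, FADS1, LPCAT3, ABCA1 and SMPDL3A. In WT against EV, 6 were higher and 9 lower (12.4% and 11.1%).

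**Figure D2:**
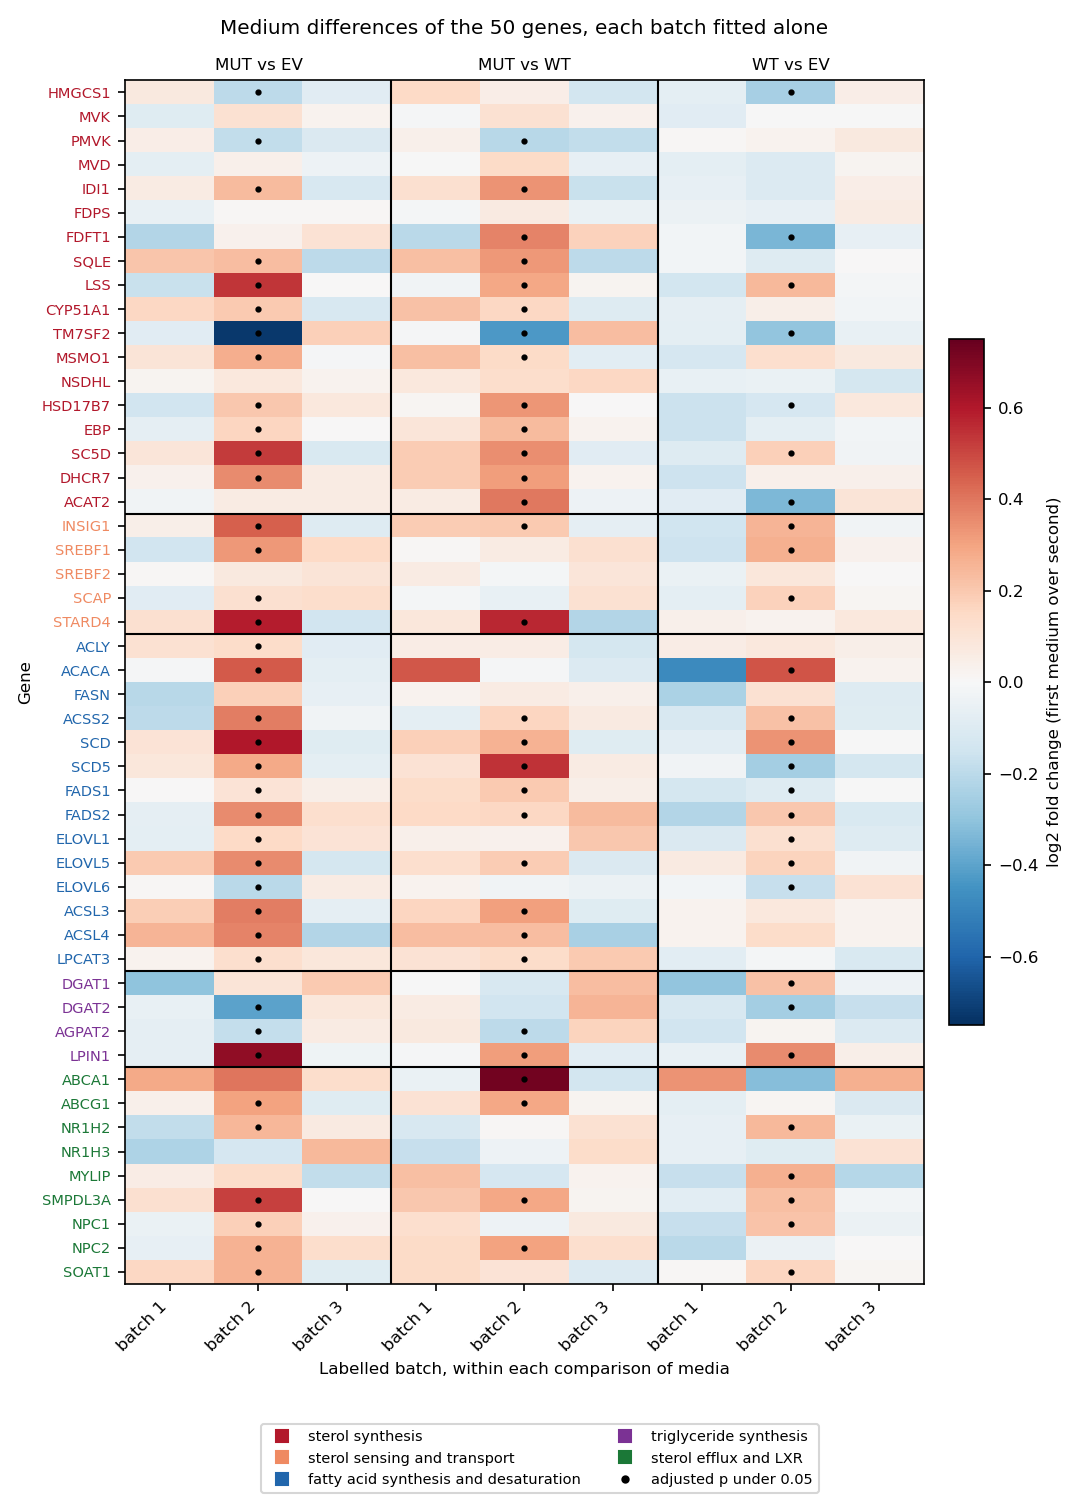
Log2 fold changes of the 50 genes (rows, by sub-list) for each of the 3 comparisons in each batch fitted alone (columns), with colour for the log2 value and a mark for adjusted p under 0.05. Marks appear in the batch 2 columns, with 38, 30 and 27 genes, and in none of the batch 1 or batch 3 columns.

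Among the sterol synthesis genes, DHCR7 (ENSG00000172893, chromosome 11, 71428193 to 71452868, minus strand) read 113, 118 and 112 CPM with EV medium in batch 1, 99.8, 102, 107 and 101 with WT and 113, 123, 115 and 122 with MUT. Batch 2 gave DHCR7 values of 112, 122 and 119 with EV, 121, 123 and 119.5 with WT and 142, 158 and 149 with MUT. In batch 3, DHCR7 read 157, 166 and 153 with EV, 159, 158 and 170.2 with WT and 164, 172 and 162 with MUT. MUT libraries lay above all WT libraries in batches 1 and 2, above all EV libraries in batch 2, and overlapped both in batch 3. The within-batch log2 fold changes were 0.03, 0.35 and 0.06 against EV and 0.19, 0.31 and 0.02 against WT, for batches 1, 2 and 3.

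SC5D, the desaturase that acts just before DHCR7, read 99.9, 109.9 and 109 CPM with EV in batch 1, 100.5, 92.4, 101 and 102 with WT and 113, 117, 119 and 109.5 with MUT. Batch 2 gave SC5D values of 102, 90.9 and 100 with EV, 109.5, 116 and 107 with WT and 142, 134 and 145 with MUT. In batch 3, SC5D read 116, 113 and 119.5 with EV, 118, 111 and 113 with WT and 116, 104 and 103 with MUT. The 3 media did not overlap in batch 2, in the order EV, WT, MUT, and all overlapped in batch 3. Batch 2 alone gave 0.53 ± 0.05 for MUT against EV (adjusted p = 1.46e-07), and the 3 batches together 0.18 ± 0.06 (adjusted p = 0.0679).

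EBP, a sterol isomerase of the same late steps, read 132, 136 and 131 CPM with EV in batch 1, 115, 117, 120.5 and 122 with WT and 125, 124, 119 and 145 with MUT. Batch 2 gave EBP values of 169, 178 and 177 with EV, 164, 169 and 165 with WT and 188, 199 and 198 with MUT. In batch 3, EBP read 216, 216 and 203 with EV, 207, 209 and 207 with WT and 207, 216 and 214 with MUT. Batch 1 WT libraries lay below all EV libraries, batch 2 MUT libraries lay above all others, and batch 3 libraries overlapped. Over the 3 batches EBP stood at 0.12 ± 0.03 in MUT against WT (adjusted p = 0.0718), which did not pass.

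TM7SF2 read 71.9, 72.7 and 70.1 CPM with EV in batch 1, 65.3, 74.0, 67.9 and 64.5 with WT and 70.4, 64.8, 66.0 and 72.4 with MUT. Batch 2 gave TM7SF2 values of 104, 115 and 108 with EV, 90.2, 86.6 and 90.0 with WT and 63.9, 69.0 and 64.2 with MUT. In batch 3, TM7SF2 read 86.9, 84.0 and 79.5 with EV, 75.9, 79.5 and 84.6 with WT and 91.3, 93.6 and 98.3 with MUT. The MUT libraries were thus the lowest of batch 2 and the highest of batch 3, with no overlap in either. MUT against EV was 0.18 ± 0.06 in batch 3 (adjusted p = 0.186), and the interaction with batch had an adjusted p of 2.57e-10.

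Besides DHCR7, no sterol synthesis gene was called over the 3 batches together by edgeR. In batch 2, LSS, which cyclises squalene epoxide to lanosterol, rose by 0.53 ± 0.05 in MUT against EV and by 0.24 ± 0.05 in WT against EV. SQLE, squalene epoxidase, rose in batch 2 by 0.23 ± 0.04 against EV and 0.32 ± 0.04 against WT, and IDI1, isopentenyl diphosphate isomerase, by 0.24 ± 0.04 and 0.34 ± 0.04. FDPS, which makes farnesyl diphosphate, MVK and MVD, a kinase and a decarboxylase of the mevalonate pathway, and NSDHL, a sterol dehydrogenase, were called between media in none of the batches.

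Of the sensing and transport genes, STARD4, a sterol carrier between membranes, read 47.8, 50.9 and 50.8 CPM with EV in batch 1, 51.7, 48.1, 51.6 and 52.4 with WT and 55.7, 55.1, 56.9 and 52.2 with MUT. Batch 2 gave STARD4 values of 62.8, 56.8 and 61.9 with EV, 61.6, 61.4 and 62.1 with WT and 93.0, 86.9 and 92.3 with MUT. In batch 3, STARD4 read 86.7, 88.3 and 93.4 with EV, 104, 88.2 and 90.7 with WT and 87.2, 77.5 and 78.7 with MUT. MUT lay above every EV library in batches 1 and 2, but below every WT library in batch 3. In batch 2, STARD4 rose by 0.59 ± 0.05 against EV and 0.56 ± 0.05 against WT, and over the 3 batches it stood at 0.20 ± 0.07 against EV (adjusted p = 0.0883).

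INSIG1 read 236, 261 and 261 CPM with EV in batch 1, 234, 209, 224 and 242 with WT and 251, 255, 274 and 272 with MUT. Batch 2 gave INSIG1 values of 322, 292 and 321 with EV, 369, 388 and 362 with WT and 441, 415 and 418 with MUT. In batch 3, INSIG1 read 389, 395 and 406 with EV, 410.3, 383 and 372 with WT and 372, 375 and 366 with MUT. MUT libraries were above all EV libraries in batch 2 and below all of them in batch 3. SREBF1 rose in batch 2 by 0.33 ± 0.05 in MUT against EV, and SCAP by 0.12 ± 0.04. SREBF2 stood at 0.07 ± 0.04 there (adjusted p = 0.126).

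Among the fatty acid genes, SCD (ENSG00000099194, chromosome 10, 100347124 to 100364834, plus strand) read 1842, 2078 and 1990 CPM with EV in batch 1, 1895, 1770, 1876 and 1918 with WT and 2092, 2227, 2170 and 2083 with MUT. Batch 2 gave SCD values of 2047, 2024 and 2010 with EV, 2557, 2648 and 2503 with WT and 3146, 3039 and 3000 with MUT. In batch 3, SCD read 2889, 3075 and 3028 with EV, 3023, 3073 and 2860 with WT and 2860, 2879 and 2712 with MUT. MUT lay above all other libraries in batches 1 and 2 and below all EV libraries in batch 3. The within-batch log2 fold changes against EV were 0.10, 0.60 and -0.09, for batches 1, 2 and 3.

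SCD5 (ENSG00000145284, chromosome 4, 82629539 to 82798857, minus strand) read 18.8, 19.4 and 19.4 CPM with EV in batch 1, 19.2, 18.6, 20.5 and 16.8 with WT and 19.9, 22.9, 21.0 and 18.8 with MUT. Batch 2 gave SCD5 values of 29.4, 29.1 and 29.6 with EV, 23.9, 24.7 and 25.3 with WT and 36.3, 36.0 and 34.7 with MUT. In batch 3, SCD5 read 26.1, 29.0 and 27.5 with EV, 26.0, 23.2 and 25.9 with WT and 24.6, 28.7 and 25.2 with MUT. The media separated in batch 2, in the order WT, EV, MUT, while MUT overlapped both others in batches 1 and 3. Log2 fold changes against WT were 0.11, 0.54 and 0.06 in batches 1, 2 and 3.

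FADS1 (ENSG00000149485, chromosome 11, 61799625 to 61829318, minus strand) read 493.4, 499 and 499 CPM with EV in batch 1, 463, 433, 451 and 465 with WT and 517, 493.4, 509 and 501 with MUT. Batch 2 gave FADS1 values of 438, 426 and 445 with EV, 404, 414 and 408 with WT and 476, 458 and 468 with MUT. In batch 3, FADS1 read 468, 514 and 509.5 with EV, 504, 487 and 491 with WT and 507, 530.2 and 498 with MUT. WT libraries were the lowest in batches 1 and 2, with no overlap, and the media overlapped in batch 3. FADS1 stood at 0.14, 0.20 and 0.05 on the log2 scale in MUT against WT in batches 1, 2 and 3.

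FADS2 (ENSG00000134824, chromosome 11, 61792980 to 61867354, plus strand) overlaps FADS1 on the opposite strand. The library kit was stranded, but no source used here states a strand setting for the counting, so reads of the 2 genes may be split between them. FADS2 read 1093, 1065 and 1063 CPM with EV in batch 1, 923, 908, 932 and 923 with WT and 1069, 1028, 952 and 1099 with MUT. Batch 2 gave FADS2 values of 777, 845 and 824 with EV, 938, 938 and 939 with WT and 1010, 1088 and 1025 with MUT. In batch 3, FADS2 read 1066, 1105 and 1051 with EV, 901, 1023 and 1049 with WT and 1129, 1218 and 1169 with MUT. Every MUT library lay above every WT library of its batch, by log2 fold changes of 0.15, 0.16 and 0.24 in batches 1, 2 and 3.

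ACSL3 (ENSG00000123983, chromosome 2, 222860934 to 222944639, plus strand) read 70.7, 77.2 and 74.2 CPM with EV in batch 1, 76.8, 68.4, 76.9 and 78.7 with WT and 84.6, 86.9, 87.5 and 81.7 with MUT. Batch 2 gave ACSL3 values of 88.6, 82.9 and 86.0 with EV, 89.1, 93.5 and 90.2 with WT and 116, 109 and 110.4 with MUT. In batch 3, ACSL3 read 95.1, 94.5 and 95.8 with EV, 103, 94.2 and 92.9 with WT and 94.2, 87.3 and 91.1 with MUT. MUT lay above all others in batches 1 and 2 and below all EV libraries in batch 3, with log2 fold changes against EV of 0.18, 0.39 and -0.07. ACSL4, which activates arachidonic acid, rose in batch 2 by 0.37 ± 0.07 against EV.

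LPCAT3 (ENSG00000111684, chromosome 12, 6976186 to 7018510, minus strand) read 72.2, 71.0 and 75.5 CPM with EV in batch 1, 71.3, 66.8, 68.5 and 68.6 with WT and 74.3, 75.2, 77.1 and 74.4 with MUT. Batch 2 gave LPCAT3 values of 62.9, 59.3 and 61.0 with EV, 59.3, 62.2 and 60.3 with WT and 64.7, 66.8 and 67.6 with MUT. In batch 3, LPCAT3 read 73.3, 74.7 and 74.2 with EV, 60.5, 70.5 and 73.8 with WT and 79.2, 77.7 and 78.7 with MUT. As with FADS2, every MUT library lay above every WT library of its batch, and in batches 2 and 3 above every EV library too. The log2 fold changes against WT were 0.11, 0.14 and 0.20.

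ACSS2, which makes acetyl-CoA from acetate, read 53.9, 56.0 and 57.4 CPM with EV in batch 1, 50.2, 52.2, 51.4 and 51.5 with WT and 50.0, 46.9, 46.9 and 53.7 with MUT. Batch 2 gave ACSS2 values of 69.9, 72.2 and 70.1 with EV, 81.3, 85.1 and 81.4 with WT and 89.7, 93.0 and 93.2 with MUT. In batch 3, ACSS2 read 77.9, 76.6 and 76.0 with EV, 70.0, 72.8 and 72.9 with WT and 75.4, 77.9 and 73.4 with MUT. MUT lay below all EV libraries in batch 1, above all of them in batch 2, and overlapped them in batch 3. ACACA rose in batch 2 by 0.46 ± 0.15 in MUT against EV, and ACLY, which makes cytosolic acetyl-CoA from citrate, by 0.14 ± 0.04. FASN, fatty acid synthase, stood at 0.18 ± 0.11 (adjusted p = 0.239), and ELOVL6, which elongates saturated chains, fell by 0.20 on the log2 scale. ELOVL5, an elongase of polyunsaturated chains, rose by 0.36 ± 0.04 and ELOVL1, an elongase of very long chains, by 0.15 ± 0.04.

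**Figure D3:**
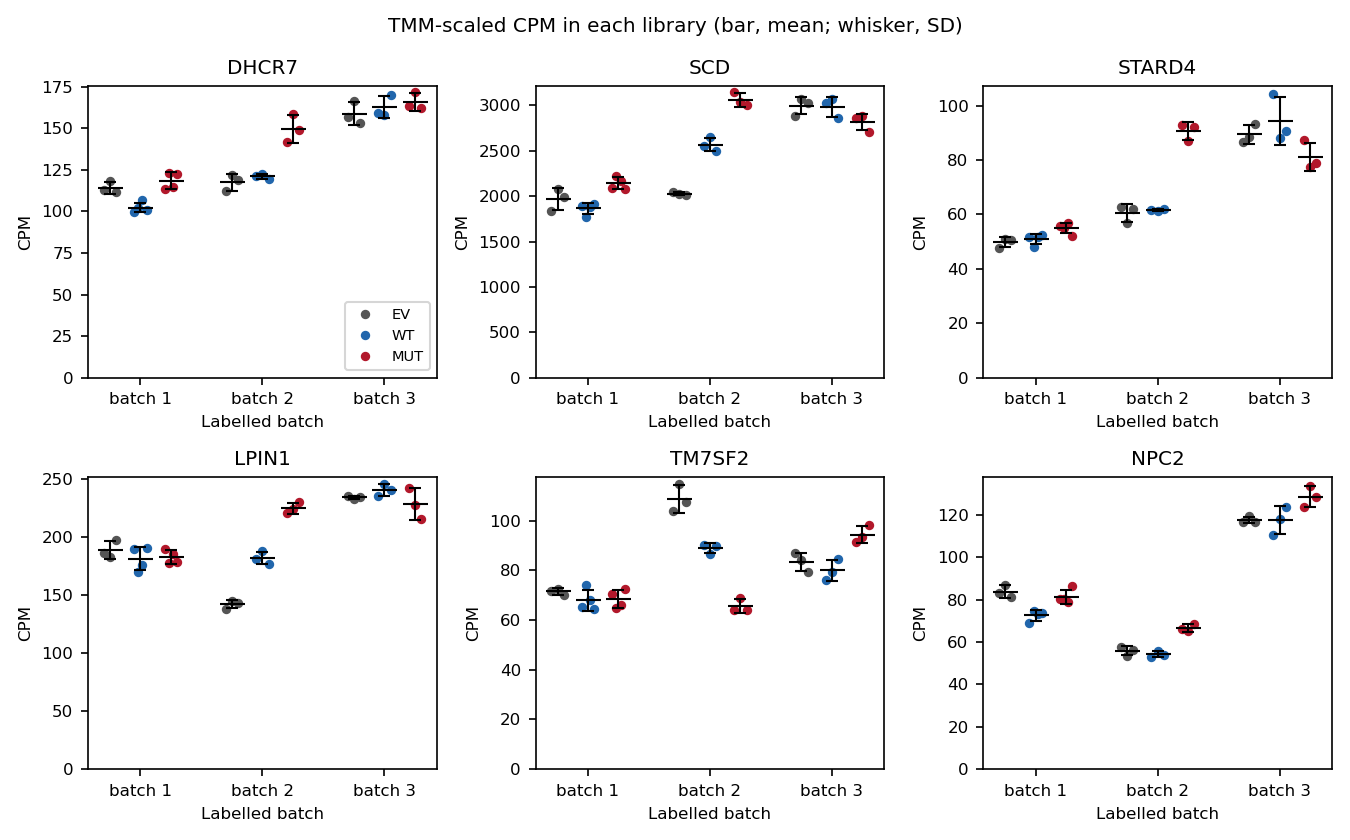
CPM of DHCR7, SCD, STARD4, LPIN1, TM7SF2 and NPC2 in each of the 29 libraries (vertical axes from 0), by labelled batch and coloured by medium, with 1 point a library, a bar at the mean and whiskers of 1 SD. In batch 2 SCD and LPIN1 go up and TM7SF2 goes down from EV to WT to MUT without overlap, and in batch 3 the MUT libraries of SCD lie below EV and those of TM7SF2 above.

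In triglyceride synthesis, LPIN1 read 186, 183 and 197 CPM with EV in batch 1, 189, 169.7, 176 and 190.4 with WT and 189.7, 177, 185 and 178 with MUT. Batch 2 gave LPIN1 values of 138, 145 and 143 with EV, 181, 188 and 177 with WT and 220.3, 224 and 229.7 with MUT. In batch 3, LPIN1 read 235, 232 and 235 with EV, 235, 246 and 241 with WT and 242, 228 and 215 with MUT. The media separated in batch 2, in the order EV, WT, MUT, where EV libraries were also lower than in batches 1 and 3. MUT overlapped EV in the other two batches, and over the 3 batches LPIN1 stood at 0.18 ± 0.07 against EV (adjusted p = 0.0936).

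DGAT2 read 20.6, 22.0 and 21.3 CPM with EV in batch 1, 21.6, 20.2, 19.8 and 16.7 with WT and 21.8, 21.2, 19.2 and 21.0 with MUT. Batch 2 gave DGAT2 values of 18.4, 19.7 and 19.2 with EV, 15.9, 16.1 and 16.0 with WT and 15.3, 13.5 and 14.4 with MUT. In batch 3, DGAT2 read 16.1, 17.6 and 16.4 with EV, 15.4, 14.9 and 14.1 with WT and 17.7, 18.5 and 16.9 with MUT. WT lay below all EV libraries in batches 2 and 3, while MUT was the lowest in batch 2 and overlapped EV in batch 3. In batch 2, DGAT2 fell by 0.40 in MUT against EV and by 0.26 in WT against EV on the log2 scale. DGAT1, the other acyltransferase of this step, was called in batch 2 only for WT against EV (0.22 ± 0.06), and its values are repeated by another entry of the table.

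Of the efflux and LXR genes, SMPDL3A (ENSG00000172594, chromosome 6, 122789049 to 122809720, plus strand) read 11.8, 12.9 and 12.3 CPM with EV in batch 1, 11.5, 10.7, 11.2 and 13.2 with WT and 12.5, 14.1, 13.8 and 14.1 with MUT. Batch 2 gave SMPDL3A values of 15.1, 15.2 and 16.5 with EV, 19.0, 17.8 and 18.1 with WT and 22.0, 22.1 and 22.7 with MUT. In batch 3, SMPDL3A read 17.7, 18.2 and 17.7 with EV, 16.3, 17.8 and 18.6 with WT and 17.9, 17.7 and 18.0 with MUT. The media separated in batch 2, in the order EV, WT, MUT, and overlapped in batches 1 and 3. Log2 fold changes against EV were 0.12, 0.52 and 0.00 in batches 1, 2 and 3.

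NPC2 (ENSG00000119655, chromosome 14, 74476192 to 74494177, minus strand) read 83.0, 87.0 and 81.1 CPM with EV in batch 1, 68.8, 74.8, 73.0 and 73.9 with WT and 80.3, 80.1, 78.7 and 86.2 with MUT. Batch 2 gave NPC2 values of 57.6, 53.4 and 56.3 with EV, 53.1, 56.0 and 53.8 with WT and 66.1, 65.0 and 68.6 with MUT. In batch 3, NPC2 read 117, 119 and 117 with EV, 110.6, 118.1 and 123.8 with WT and 123.7, 133.6 and 128.6 with MUT. MUT lay above every WT library in batches 1 and 2, and in batch 3 all but 1 MUT library did. Against WT the log2 fold changes were 0.14, 0.30 and 0.13.

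The other efflux and LXR genes were not called over the 3 batches. The receptor gene NR1H2 rose in batch 2 by 0.25 ± 0.06 in MUT against EV and 0.24 ± 0.06 in WT against EV, while NR1H3 stood at -0.13 ± 0.08 and -0.09 ± 0.08. Among LXR targets, ABCG1, a sterol exporter, rose by 0.30 ± 0.07 in MUT against EV in batch 2, and ABCA1 stood at 0.40 ± 0.25 (adjusted p = 0.203). MYLIP, which marks lipoprotein receptors for degradation, stood at 0.14 ± 0.10 (adjusted p = 0.27). NPC1, the lysosomal partner of NPC2, rose by 0.18 ± 0.04, and SOAT1, which esterifies cholesterol, by 0.26 ± 0.05.

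Between batches, with medium as a term in the model, most of the 50 genes differed, as did a large share of the table. Batch 2 against 1 gave 30 higher and 11 lower of 50 (66.7% of all genes were called, 33.7% higher and 33.0% lower), batch 3 against 1 gave 39 higher and 3 lower (56.6%, 29.9% higher and 26.7% lower), and batch 3 against 2 gave 24 higher and 8 lower (44.5%, 22.2% higher and 22.3% lower). Sterol synthesis genes were on one side: 14 of 18 were higher and 0 lower in batch 2 than in 1, and 16 higher and 0 lower in batch 3 than in 1, with medians of 0.50 and 0.64 on the log2 scale. In the EV libraries alone these were 12 higher and 2 lower, where 30.7% of all genes were higher and 28.6% lower, and 15 higher and 0 lower, where 26.0% were higher and 22.7% lower. Over the 50 genes the EV libraries alone gave 26 higher and 17 lower in batch 2 than in 1, and 34 higher and 4 lower in batch 3 than in 1. What a batch stands for is not given in the labels, and the batches cannot be told apart from anything else that differed between them.

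MSMO1, a sterol oxidase of the late pathway, ranged from 77.5 to 103.5 CPM in batch 1 (median 89.4), 184.9 to 251.4 in batch 2 (median 216.4) and 183.7 to 207.6 in batch 3 (median 197.3). HMGCS1 ranged from 411 to 512 in batch 1, 850.4 to 1104 in batch 2 and 782 to 988 in batch 3, with medians of 463, 919 and 844 CPM. SQLE ranged from 110.2 to 148.4, 204.7 to 264.4 and 216.3 to 279.4, with medians of 126.8, 224.2 and 250.3 CPM. For all 3 genes, every library of batches 2 and 3 lay above every library of batch 1. MSMO1 rose by 1.28 ± 0.04 in batch 2 and 1.12 ± 0.04 in batch 3, each against batch 1.

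The efflux and LXR genes did not share 1 order: 3 were higher and 4 lower in batch 2 than in batch 1, and 7 higher and 1 lower in batch 3 than in batch 1. SMPDL3A, SOAT1 and NR1H3 were higher than batch 1 in both. In the EV libraries alone this held for SMPDL3A and SOAT1 but not for NR1H3. There NR1H3 stood at 0.15 ± 0.09 in batch 2 (adjusted p = 0.149) and -0.06 ± 0.09 in batch 3 (adjusted p = 0.639), each against batch 1. ABCG1 ranged from 15.2 to 19.3 CPM in batch 1, 12.9 to 18.1 in batch 2 and 34.0 to 40.4 in batch 3. Its batch 3 range lay apart, while the ranges of batches 1 and 2 overlapped. ABCG1 was among the 4 genes called lower in batch 2 than in batch 1, and stood at -0.34 ± 0.07 in the EV libraries alone. NPC2 ranged from 68.8 to 87.0, 53.1 to 68.6 and 110.6 to 133.6 CPM, lowest in batch 2 and highest in batch 3 with no overlap. ABCA1 ranged from 0.84 to 1.66, 0.383 to 0.769 and 0.892 to 1.67 CPM, lowest in batch 2, and differed by -1.21 ± 0.15 between batches 2 and 1. In other lists, SREBF1 fell by 0.41 and FASN by 0.31 on the log2 scale from batch 1 to batch 2, and in the EV libraries alone by 0.73 and 0.58. DGAT1 ranged from 23.6 to 35.2, 15.8 to 20.1 and 14.7 to 21.1 CPM, and differed by -0.67 ± 0.07 and -0.63 ± 0.07 from batch 1.

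**Figure D4:**
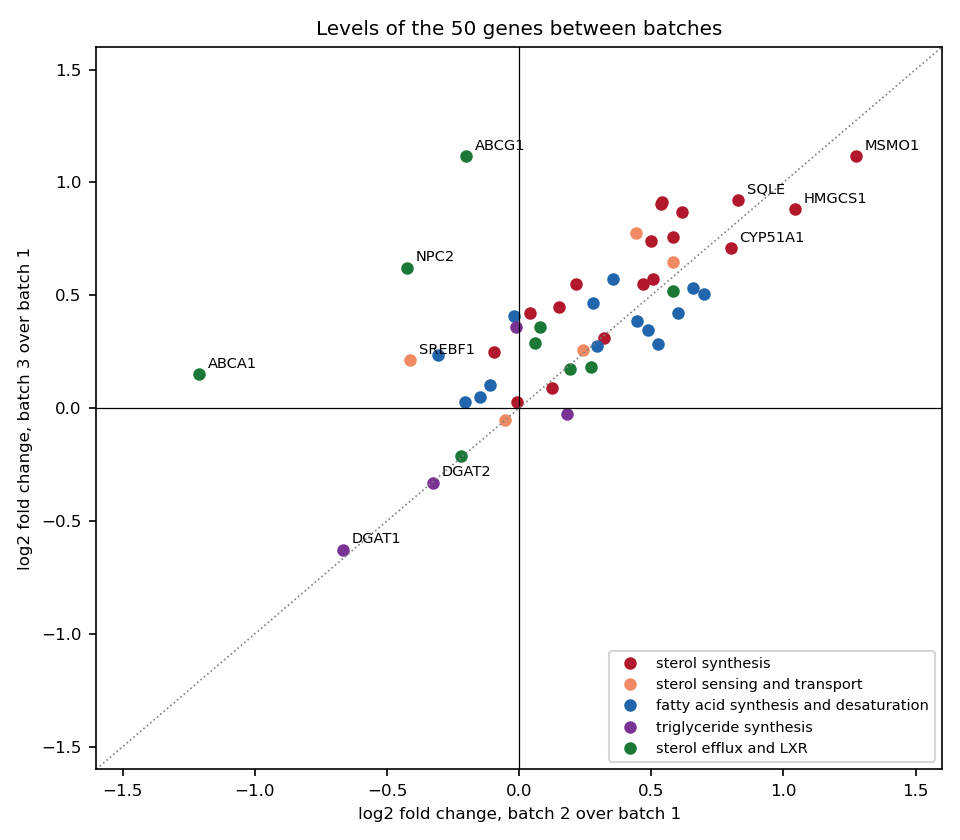
Log2 fold change of each of the 50 genes in batch 2 over batch 1 (horizontal axis) and batch 3 over batch 1 (vertical axis), coloured by sub-list, with a dotted line of equal values. Both axes share batch 1, so the points' spread along the line is in part shared, and ABCG1, NPC2, SREBF1 and ABCA1 lie to the left of 0 and above 0.

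Another 49 genes of lipid metabolism and its regulation, a list made with results of these data known, gave 45 that could be tested. Of these 45, 4 rose in MUT against EV (5.20% of all genes were called): GGPS1, which makes geranylgeranyl diphosphate, by 0.17 ± 0.05 (adjusted p = 0.0379), MBTPS1, a protease that activates SREBPs, by 0.11 ± 0.03 (0.0336), HSD17B12, a reductase of fatty acid elongation, by 0.14 ± 0.04 (0.0332), and ELOVL4, an elongase of very long chains, by 0.26 ± 0.08 (0.04999). In MUT against WT, 1 fell (0.884% of all genes were called): LRP8, a lipoprotein receptor of the reelin pathway, at -0.19 ± 0.05 (adjusted p = 0.0409). For WT against EV, edgeR called 0 (0.315% of all genes). In MUT against EV, MUT against WT and WT against EV, DESeq2 called 10, 2 and 1 of these genes (2108, 528 and 385 of all genes). Of the 50 genes it called 10, 9 and 1. Unadjusted p was under 0.05 for 18, 12 and 11 of the 45, and for 17, 22 and 9 of the 50. Over all 21259 genes it was under 0.05 for 5005, 3145 and 2800. The medians of the 3 comparisons were 0.03, 0.03 and 0.01 on the log2 scale, against 0.06, 0.10 and -0.03 for the 50 genes. In batch 2, 17 rose and 13 fell of 46 tested in MUT against EV, where 24.1% of all genes were higher and 23.8% lower.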

How the data were processed

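Stranded mRNA libraries of EndoC-βH1 cells were sequenced by the authors, who deposited 1 table of estimated counts per gene. fastp and kallisto are named in the submitters' processing notes, while versions, genome build and annotation were not given in these sources. The expected counts were rounded to whole numbers. Of 66025 entries, 59369 had a gene symbol, and entries without one held 2.69% of counts. Totals of 26201744 to 40246537 a library set the counting precision. edgeR 4.0.16 (R 4.3.3) was used with TMM scaling, its low-count filter, quasi-likelihood fits with robust moderation and Benjamini-Hochberg adjustment over all 21259 genes tested. The first fit had no robust moderation and filtered by batch and medium, and robust moderation and the filter by model were chosen after seeing the data. The 3 pairs of media were compared over 29 libraries with batch as a term (24 residual degrees of freedom), within each batch fitted alone, and with an interaction (20 residual degrees of freedom). A call is an adjusted p under 0.05, and the scripts were tested on simulated data. Alternatives used limma 3.58.1 and DESeq2 1.42.0. Plots were drawn with matplotlib 3.10.9 under Python 3.11.15. Of 28 pairs of libraries that share a batch and a replicate number, 0 had deviations correlated over 0.1 (range -0.058 to 0.089), so numbers do not pair libraries. Coordinates are from GENCODE 29 (GRCh38), matched by Ensembl ID, and promoters from RefSeq (GRCh38.p14). The genes named with a value in every library were those called over the batches, then the 2 with the smallest p in each list and the 6 with the smallest interaction p, 17 in all. The 50 genes and all lists were chosen with earlier results of these data known.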

Additional observations from a re-analysis of the deposited data

Results flagged for a closer look

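The difference between media was tested for a change between batches, and edgeR called that change for 36 of the 50 genes in MUT against EV, 26 in MUT against WT and 23 in WT against EV, where it was called for 44.0%, 28.4% and 24.1% of all genes. The 6 smallest adjusted p-values in MUT against EV were 1.72e-10 for LPIN1, 2.57e-10 for TM7SF2, 2.77e-09 for SCD, 6.21e-08 for ACSS2, 6.68e-08 for STARD4 and 2.9e-07 for SC5D. For each of these 6 genes the batch 2 and batch 3 values had opposite signs, and the batch 3 values did not pass on their own. SC5D in WT batch 1 replicate 2, at 92.4 CPM, stood apart from the other WT libraries of that batch. It was the only library flagged in the 85 groups examined. For each of the 17 genes, these were the WT and the MUT libraries of batch 1 and each medium over the 3 batches. The rate of about 1 in 20 by chance is for libraries of 1 batch and medium. It does not hold for groups over the 3 batches, whose spread includes differences between batches. Groups of 3 libraries were not examined.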

How the results depend on the processing

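No call over the 3 batches turned direction under the 45 alternatives. Of 6750 values of the 50 genes compared, most of them not called in the main fit, 6533 kept their side of the threshold. A call was lost in 135 and gained in 82, and 0 reversed. Only genes called in the main fit could lose a call. Of the 45 alternatives, the call in MUT against EV was kept in 19 for SCD, 31 for ACSL3, 32 for DHCR7 and 32 for SMPDL3A. In MUT against WT it was kept in 13 for FADS2, 27 for SCD5, 38 for DHCR7, 39 for FADS1, 42 for LPCAT3 and 42 for NPC2. In MUT against EV the count of 4 was 10 with DESeq2, 9 with GC and length offsets, 8 without batch 1 and 20 without batch 3. In the same order all genes gave 2108, 1855, 1145 and 4744, against 1106. The count of 4 was 0 with no filter on low counts (232 of all genes) and with only the 2 media compared (20 of all genes). It was also 0 with 1 summed profile per batch and medium (0 of all genes) and without batch 2 (0 of all genes). With limma voom and an estimated correlation between libraries (0.43) it was 0 as well (1 of all genes). In MUT against WT the count of 6 was 3 with no filter, 0 with summed profiles, 0 with voom, 2 without batch 1, 2 without batch 2 and 21 without batch 3. All genes there gave 81, 0, 4, 104, 305 and 1552, against 188. WT against EV went from 0 to 1 with DESeq2, 1 with only the 2 media compared and 2 without batch 3. Over all genes these settings gave 385, 372 and 551, against 67. With the replicate number as a block, 0 of the 50 genes were called in MUT against EV (0 of all genes). That block gave 2 in MUT against WT (44 of all genes) and 1 in MUT against WT in batch 3. Leaving out 1 library at a time gave 0 to 10 in MUT against EV and 3 to 7 in MUT against WT. Counts over all genes are not given here for fits without 1 library, so such ranges are not read against the whole table. The interaction count in WT against EV was 15 with no filter, against 23 (4390 of all genes, against 5131). In batch 1, MUT against EV went from 0 to 10 with DESeq2, 1 with total library size, 6 with no filter and 8 with the cell-means model over all libraries. All genes gave 1895, 569, 995 and 2258 there, against 294. Without 1 library the count in MUT against EV spanned 0 to 14. MUT against WT in batch 1 went to 14 with DESeq2, 1 with DESeq2 size factors, 3 with total library size and 6 with no filter. All genes gave 860, 75, 133 and 415, against 58. It went to 11 with GC and length offsets (651 of all genes) and 17 with the cell-means model (1106 of all genes), and spanned 0 to 10. WT against EV in batch 1 went to 5 with DESeq2, 1 with no filter and 3 with the cell-means model (143, 78 and 214 of all genes, against 3). In batch 3, MUT against WT went from 0 to 6 with DESeq2 (810 of all genes, against 248). It was 7 with no filter, 2 with GC and length offsets and 7 with the cell-means model. Counts over all genes are not given here for those settings, so these values are not read against the whole table. Without 1 library, MUT against WT in batch 3 spanned 0 to 7 and MUT against EV 0 to 3. The cause of these moves was not tested. Without EV batch 1 replicate 2, the library with the label out of sequence, the counts were 3, 6 and 0. Robust moderation and the filter by model were chosen after seeing the data, and the first fit, without robust moderation and with the filter by batch and medium, also gave counts of 4, 6 and 0. Over all genes in batch 1 it called 3, 2 and 2.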
